A study of Sus scrofa with 13 samples.

Results

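Spleen and lung of the Guizhou mini-pig, a pig breed of small size, were compared at postnatal 240 days by total RNA sequencing, with 1 library for each organ. These were 2 of the 13 libraries of the series. Heart, liver, kidney, testis, ovary, adipose tissue and longissimus dorsi (a skeletal muscle along the spine) were sequenced at the same age and in the same breed, and these 7 libraries served as the other organs. The number and sex of the animals behind each organ library were not given in the sources used here. Expression was given as RPKM, which sets the reads on a feature relative to its length and to the depth of the library. A total of 10671 of 21607 Ensembl genes and 724 of 10813 lncRNAs had an RPKM of at least 1 in spleen, in lung or in both, and these were compared. LncRNAs are RNAs without a known protein product, and here they carried a TCONS identifier from the transcript assembly.

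The spleen filters blood. Its red pulp holds macrophages that take up aged red cells and recycle their iron, its white pulp holds B and T lymphocytes, and a capsule with strands of smooth muscle surrounds both. In the lung, flat alveolar type 1 cells and a dense bed of capillaries form the surface for gas exchange, alveolar type 2 cells make surfactant, and the airways are lined by ciliated and secretory cells. Both organs hold many leukocytes of the blood and of the tissue.

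The total number of reads in RPKM was 36394734 in spleen and 36962781 in lung, as recovered from the values. Reads counted on the listed features made up 11.6% of this total in spleen (4219511 reads) and 16.7% in lung (6154301 reads), so the RPKM values summed to 61672 in spleen and to 81993 in lung. The SMART and dUTP protocols were both named for the series, and which of them made each library was not given in the sources used here. With 1 library for each organ, no difference had a replicate check, and no test between the organs was possible. The 95% intervals given below are exact binomial intervals of the ratio of recovered reads and cover counting error only. In whole tissue, fewer cells of a type and less RNA per cell cannot be told apart.

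The deposited values of most genes were lower in spleen than in lung. Differences are given as spleen minus lung on the log2(RPKM + 0.1) scale, and a feature was called higher in an organ when it was at least 2-fold above the other on this scale. Of the 10671 genes, 723 (6.78%) were higher in spleen, 3459 (32.4%) were higher in lung and 6489 (60.8%) lay within 2-fold. The median difference was -0.57, with quartiles of -1.28 and -0.01. Part of this split followed from the scale. When both libraries were scaled to the same total, 1206 genes were higher in spleen and 2325 in lung. Scaled to the same median ratio over the 9 organs, 1628 were higher in spleen and 1900 in lung, with a median of 0.10. The spleen's part of all differences past 2-fold thus went from 17.3% to 34.2% and 46.1%. The interval of the read ratio did not include 1 for 718 of the 723 genes higher in spleen. In lung this held for 3454 of the 3459 genes. The interval was not set against the 2-fold limit of the calls.

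TMSB10, RPLP2 and COX1 were among the 5 most abundant genes with a symbol in both organs. TMSB10, a protein that binds actin monomers, had 542 RPKM in spleen and 628 RPKM in lung. RPLP2, a protein of the large ribosomal subunit, had 537 RPKM in spleen and 461 RPKM in lung. COX1, a mitochondrial subunit of cytochrome c oxidase, had 505 RPKM in spleen and 629.9 RPKM in lung. All 3 lay within 2-fold between spleen and lung. Other organs differed widely for TMSB10, with 14.1 RPKM in liver and 660 RPKM in ovary, and COX1 had 6615 RPKM in heart. ACTB, the cytoplasmic actin, and FTL, the light chain of the iron store ferritin, completed the 5 most abundant genes with a symbol in spleen, with 386 and 259.7 RPKM. In lung the remaining places were taken by SFTPC and by A2M, a protease inhibitor, with 831 and 386 RPKM.

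**Figure D1:**
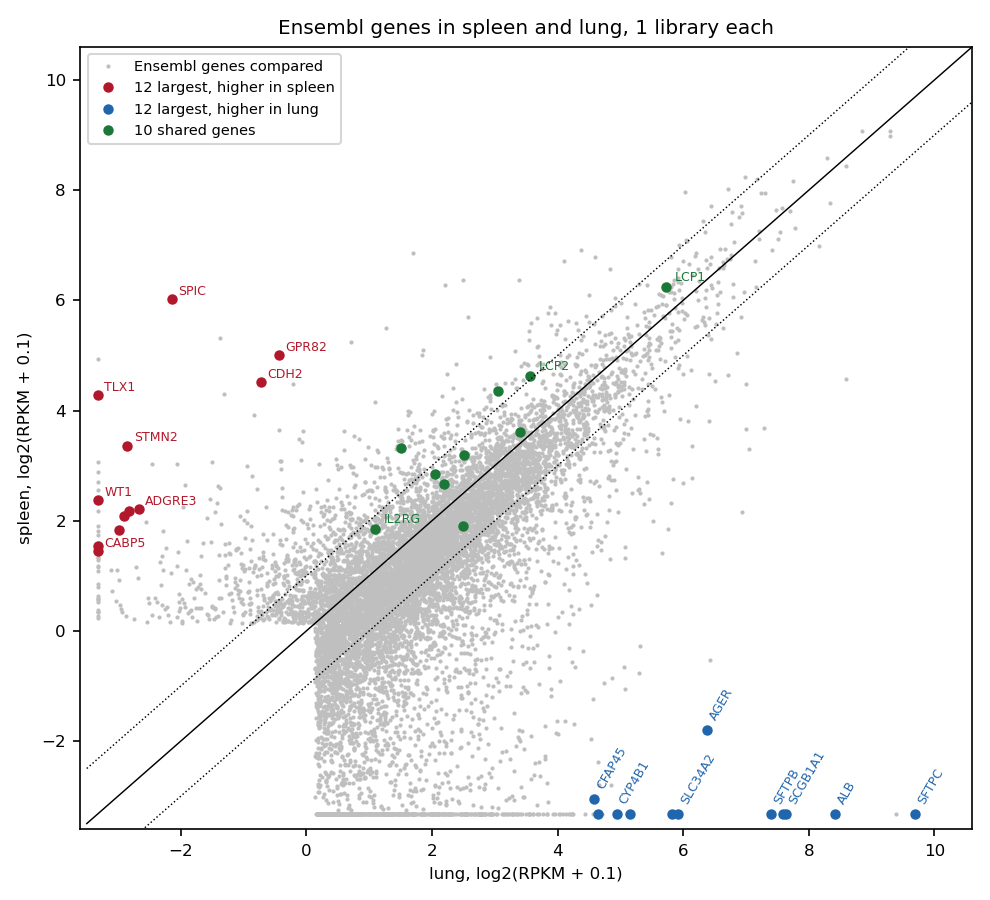
Each grey point is 1 of the 10671 Ensembl genes compared, with its level in lung on the horizontal axis and in spleen on the vertical axis, both as log2(RPKM + 0.1), 1 library per organ. The solid line marks equal levels and the dotted lines 2-fold, and coloured points are the 12 genes with the largest difference in each direction and 10 shared genes, some with their symbols. Among the coloured points, the lung genes reached 831 RPKM with no read in spleen, while the highest of the spleen genes, SPIC, had 64.9 RPKM.

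The 12 genes with a symbol and the largest excess in spleen included 3 transcription factors known from spleen, SPIC, TLX1 and WT1. SPIC, the transcription factor that red pulp macrophages depend on, had 64.9 RPKM in spleen (1006 reads) and 0.127 RPKM in lung (2 reads). It was 511-fold higher in spleen (95% interval 141 to 4224), and the highest of the 7 other organs was ovary with 1.52 RPKM. TLX1, a homeobox factor without which no spleen forms, had 19.2 RPKM in spleen and no read in lung, which makes it at least 186-fold higher when 3 reads are taken as the limit for a library without reads. No other organ exceeded 0.354 RPKM of TLX1. WT1, a zinc finger factor of the spleen anlage and of mesothelium, had 5.10 RPKM in spleen and no read in lung (at least 119-fold). WT1 was not particular to spleen, since ovary had 4.69 RPKM and testis 2.57 RPKM. NKX2-3, a homeobox factor of spleen vessels from the list of spleen stroma, was not among the 12 and had 1.41 RPKM in spleen and no read in lung (at least 22.7-fold).

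The other 9 genes had various roles, and several were as high or higher elsewhere. GPR82, an orphan receptor, had 32.0 RPKM in spleen and 0.636 RPKM in lung, a ratio of 50.4 (95% interval 39.5 to 65.3). All 7 other organs had at most 0.0218 RPKM of GPR82. STMN2, a regulator of microtubules best known from neurons, had 10.2 RPKM in spleen and 0.0386 RPKM in lung (3 reads), a ratio of 264 (95% interval 90.0 to 1283). ADGRE3, an adhesion receptor of leukocytes, had 4.52 RPKM in spleen and 0.0570 RPKM in lung, and at most 0.0837 RPKM elsewhere. CDH2, the adhesion molecule N-cadherin, had 22.7 RPKM in spleen and 0.504 RPKM in lung, against 41.4 RPKM in heart. NELL2, a secreted glycoprotein, and CHD5, a chromatin remodeller, had 4.39 and 3.45 RPKM in spleen against 0.0402 and 0.0262 RPKM in lung. Ovary had 17.4 RPKM of NELL2, and testis had 45.0 RPKM of CHD5. The remaining genes among the first 12 were ETNPPL, SMOC1 and CABP5, with 2.63 to 4.14 RPKM in spleen and at most 2 reads in lung. Kidney had 6.93 RPKM of ETNPPL, more than spleen, and ovary had 2.86 RPKM of SMOC1 against 2.81 RPKM in spleen.

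Among the genes of red pulp and iron recycling, 9 of 16 listed could be compared. Of these, 6 were higher in spleen and 2 higher in lung, with a median of 1.31 against -0.57 over all genes compared. The counts of this and the later lists stand beside 6.78% of all genes compared higher in spleen and 32.4% higher in lung. A gene below 1 RPKM in 1 organ was compared only through the other organ. One at or near 0 RPKM there could only be called higher in that other organ. VCAM1, an adhesion molecule that red pulp macrophages carry, had 77.8 RPKM in spleen and 4.53 RPKM in lung (ratio 17.2, 95% interval 15.6 to 19.0), and 15.2 RPKM in ovary, the highest other organ. BLVRB, an enzyme of haem breakdown, had 34.3 RPKM in spleen and 3.51 RPKM in lung, a ratio of 9.77 (95% interval 7.76 to 12.4). FTL was 2.48-fold higher in spleen than in lung, yet liver, kidney, testis and ovary had 403 to 725 RPKM of FTL. C1QA, a chain of complement C1q made by macrophages, had 54.2 RPKM in spleen and 15.5 RPKM in lung. HBB, the beta chain of haemoglobin and a marker of red cells, had 52.7 RPKM in spleen and 26.1 RPKM in lung. TFRC, the transferrin receptor, and HPX, a haem carrier made by liver, went the other way. TFRC had 3.98 RPKM in spleen and 10.8 RPKM in lung. HPX had no read in spleen and 6.80 RPKM in lung, against 188 RPKM in liver. SLC40A1, an iron exporter of the same list, was below the limit on RPKM and was not compared. It had 0.0989 RPKM in spleen (16 reads) and 0.0365 RPKM in lung (6 reads).

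Genes of B cells were higher in spleen in 5 of the 6 compared of 16 listed, against 6.78% of all genes compared. None was higher in lung, and the median was 2.88. MS4A1, which encodes the surface protein CD20, had 6.96 RPKM in spleen and 0.450 RPKM in lung (ratio 15.5, 95% interval 11.5 to 21.3), and CD22, an inhibitory receptor, had 5.82 and 0.482 RPKM. The adaptor BLNK had 7.27 RPKM in spleen and 4.40 RPKM in lung and lay within 2-fold. In the list of B cell receptor signalling, which shares genes such as CD22, CD72, CD79B and BLNK with the list of B cells, 10 of 17 genes were higher in spleen and 1 was higher in lung (median 1.43). The latter, RASGRP3, an activator of Ras proteins, had 3.27 RPKM in spleen and 6.97 RPKM in lung, and it lay within 2-fold under each of the other scalings. Chemokine receptors of lymphocytes differed in the same direction. CXCR5, the receptor that leads B cells into follicles, had 3.65 RPKM in spleen and 0.441 RPKM in lung, and CCR7, the homing receptor of naive T cells, had 1.26 and 0.163 RPKM. After their values were seen, the 4 compared genes of the Fc receptor-like family (FCRL) were also counted, and all 4 were higher in spleen.

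Genes of T cells showed a smaller difference. Of 9 genes compared, 6 were higher in spleen and none in lung, with a median of 1.11, where 6.78% of all genes were higher in spleen. CD3D, a chain of the T cell receptor complex, had 11.2 RPKM in spleen and 4.43 RPKM in lung, a ratio of 2.53 (95% interval 2.19 to 2.95). LCK, the kinase that starts T cell receptor signalling, had 10.4 RPKM in spleen and 3.98 RPKM in lung. CD8A, the coreceptor of cytotoxic T cells, had 0.797 RPKM in spleen and 1.22 RPKM in lung. The 5 genes of cytotoxic and natural killer cells that could be compared had 1 gene higher in spleen and none higher in lung, with a median of 0.62. That gene was CTSW, a protease of these cells, with 27.7 RPKM in spleen and 10.5 RPKM in lung. Of 3 genes of plasma cells, MZB1 was higher in spleen (7.05 against 1.63 RPKM), SDC1, which epithelia also express, was higher in lung (0.375 against 4.56 RPKM), and XBP1 lay within 2-fold.

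Contractile genes of smooth muscle were higher in spleen in 7 of 10 cases, against 6.78% of all genes compared. None was higher in lung, and the median was 1.09. MYH11, the smooth muscle myosin heavy chain, had 138 RPKM in spleen and 66.0 RPKM in lung, and 38.9 RPKM in ovary, the highest other organ. DES, the intermediate filament desmin, had 58.7 RPKM in spleen and 14.7 RPKM in lung (95% interval of the ratio 3.76 to 4.26), with 298 RPKM in heart and 515 RPKM in longissimus dorsi. CNN1, calponin, had 43.2 RPKM in spleen and 11.5 RPKM in lung. ACTA2, MYLK and CALD1 lay within 2-fold, and CALD1 was the only compared gene of the list with the lower value in spleen (34.2 against 47.5 RPKM). The genes that mark cartilage, which the walls of the bronchi hold, were below 1 RPKM in both organs for all 12 found, and their sum was 0.22 RPKM in spleen and 0.44 RPKM in lung.

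**Figure D2:**
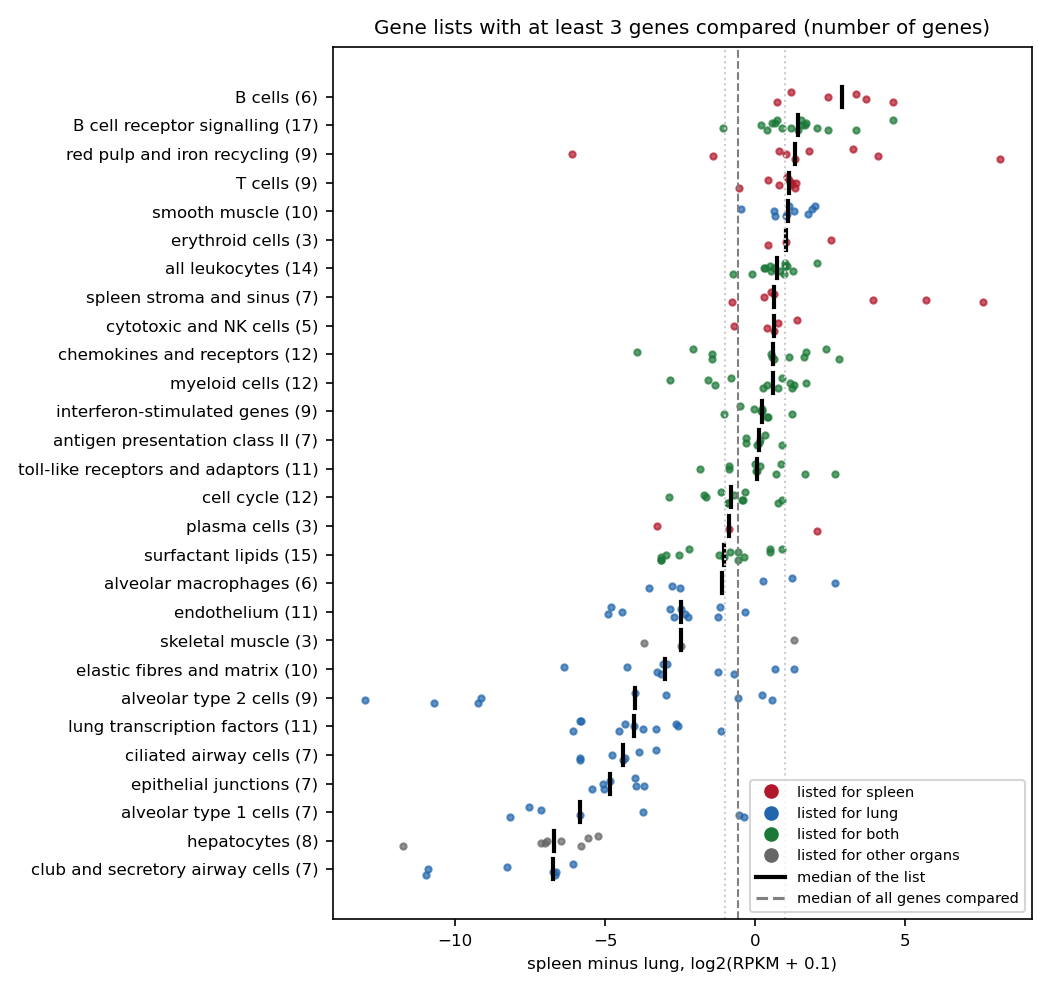
Each point is 1 gene of a list, placed by its difference between spleen and lung on the log2(RPKM + 0.1) scale (horizontal axis, positive when higher in spleen), with the lists on the vertical axis and the number of genes compared in brackets. Black bars are list medians, the dashed line is the median of all genes compared (-0.57), dotted lines mark 2-fold and colours give the organ a list was drawn up for. The medians ran from 2.88 for genes of B cells to -6.76 for genes of club and secretory airway cells.

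The lung library was set apart by the secretory products of its epithelium. SFTPC, a surfactant protein of alveolar type 2 cells, was the most abundant gene with a symbol in lung, with 831 RPKM (32284 reads) and no read in spleen, at least 10596-fold higher. SFTPB, a further hydrophobic surfactant protein, had 169 RPKM, and SFTPD, a collectin of the alveolar lining, had 56.2 RPKM in lung, both with no read in spleen. SLC34A2, the phosphate transporter of type 2 cells, had 60.5 RPKM in lung and no read in spleen (at least 2796-fold). In all, 6 of 9 genes of alveolar type 2 cells were higher in lung and none in spleen (median -4.02). With the 4 genes without a read in spleen set at their 3-read limit, the median of the log2 ratio without the added 0.1 was -4.37. ETV5, LPCAT1 and CTSH lay within 2-fold, and 1 gene of the list was higher in spleen when the libraries were scaled to the same median ratio. ETV5, a transcription factor of type 2 cells, had 4.79 RPKM in spleen and 3.24 RPKM in lung, and CTSH, a lysosomal protease, had 14.2 and 12.1 RPKM.

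The flat type 1 cells and the airway cells gave differences of the same direction. AGER, a receptor that type 1 cells carry at high levels, had 83.4 RPKM in lung (4513 reads) and 0.188 RPKM in spleen (10 reads), a ratio of 444 for lung over spleen (95% interval 241 to 927). CLDN18, a tight junction protein, had 18.7 RPKM in lung and no read in spleen. Of 7 genes of type 1 cells, 5 were higher in lung (median -5.84, or -7.08 with genes without a read at their limit). SCGB1A1 and SCGB3A2, secretoglobins of club cells, had 199.9 and 191 RPKM in lung and no read in spleen (at least 1152-fold and 655-fold). All 7 compared genes of club and secretory cells had no read in spleen, with a median of -6.76, or of -8.999 at their limits. These genes were compared only through lung, so their direction was fixed by the limit on RPKM. They included PIGR, which carries immunoglobulins across epithelia (10.7 RPKM in lung), and TFF3, a mucosal peptide (10.1 RPKM), for which all 8 other organs were listed at 0. FMO1, FMO2 and CYP4B1, oxidases of foreign compounds, had 35.4, 24.8 and 30.7 RPKM in lung and no read in spleen. FMO1 was higher still in ovary (254 RPKM), liver (214 RPKM) and kidney (45.5 RPKM), whereas FMO2 had 4.51 RPKM at most outside lung.

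Genes of motile cilia were higher in lung than in spleen and mostly higher still in testis, whose sperm carry a flagellum of the same build. CFAP45, a protein inside the ciliary microtubules, had 23.9 RPKM in lung (1202 reads), 0.0202 RPKM in spleen (1 read) and 151 RPKM in testis. All 7 compared genes of ciliated airway cells were higher in lung (median -4.41, or -5.34 at their limits), and the list summed to 0.36 RPKM in spleen, 26.5 RPKM in lung and 282 RPKM in testis. Of these 7 genes, 4 had no read in spleen and could only be called higher in lung. In families counted after their values were seen, 25 of 27 genes of cilia and flagella associated proteins (CFAP) and 5 of 5 dynein heavy chains (DNAH) were higher in lung, and none in spleen. Testis was the highest of the other organs for 24 of the 27 CFAP genes. The 7 compared genes of epithelial junctions were also all higher in lung (median -4.86), among them the adhesion molecule EPCAM with 10.1 RPKM in lung and 0.133 RPKM in spleen.

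Endothelial genes were higher in lung for 10 of 11 genes, against 32.4% of all genes compared. None was higher in spleen, and the median was -2.47. PECAM1, the adhesion molecule CD31 of endothelial junctions, had 39.2 RPKM in lung and 5.84 RPKM in spleen (ratio of lung over spleen 6.72, 95% interval 6.21 to 7.27), with 33.1 RPKM in ovary. EPAS1, a transcription factor of the response to low oxygen, had 67.1 RPKM in lung and 14.0 RPKM in spleen, and ovary was next with 14.8 RPKM. TMEM100, a membrane protein of lung vessels, had 18.8 RPKM in lung and 0.575 RPKM in spleen. TIE1, an endothelial receptor, lay within 2-fold with 3.54 RPKM in lung and 2.76 RPKM in spleen. With either scaling to the same total or to the same median ratio, 8 of the 11 genes were past 2-fold.

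Genes of elastic fibres and matrix were higher in lung in 7 of 10 cases and higher in spleen in 1 (median -3.00). The shares over all genes compared were 32.4% and 6.78%. ELN, elastin, had 10.7 RPKM in lung and 1.11 RPKM in spleen, and FBLN1, a fibulin, had 13.1 RPKM in lung and 0.0599 RPKM in spleen. EMILIN1, a further glycoprotein of elastic fibres, was the exception with 2.27 RPKM in lung and 5.76 RPKM in spleen. The transcription factors of lung development were all higher in lung, 11 of 11, with a median of -4.06 and of -5.26 at their limits, and 10 remained past 2-fold when the libraries were scaled. In spleen 5 of the 11 had no read, and FOXP2, GATA6 and EHF had at most 0.175 RPKM. All of these were compared only through lung, so their direction was fixed by the limit on RPKM. TBX4 and TBX5, T-box factors of the early lung bud, had 5.54 and 6.63 RPKM in lung and no read in spleen. TBX5 had 5.19 RPKM in heart, while TBX4 had 0.223 RPKM at most in the 7 other organs. FOXP1, a forkhead factor also of lymphocytes, differed least, with 7.59 RPKM in lung and 3.39 RPKM in spleen.

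Of 6 genes drawn up for alveolar macrophages, 3 were higher in lung and 2 higher in spleen (median -1.13). Without APOE, whose level in liver was more than 5 times that in lung, 2 were higher in each organ and the median was 0.25. MARCO, a scavenger receptor, had 45.7 RPKM in lung and 3.86 RPKM in spleen, and MRC1, the mannose receptor, had 6.13 and 0.799 RPKM. In contrast, PPARG, a nuclear receptor that alveolar macrophages need and that adipocytes use as well, had 1.68 RPKM in lung and 11.1 RPKM in spleen, and CD68, a lysosomal protein of macrophages, had 9.59 and 22.4 RPKM. APOE, a lipid carrier, had 128 RPKM in lung and 22.4 RPKM in spleen, with 5041 RPKM in liver. Of the 15 compared genes for the lipids of surfactant, 8 were higher in lung and none in spleen. Their median was -1.05 against -0.57 over all genes compared, of which 32.4% were higher in lung. With the same total, 6 of the 15 were higher in lung and 1 in spleen, and with the same median ratio 6 and 3. SCD and FASN, enzymes of fatty acid synthesis, had 20.1 and 13.3 RPKM in lung against 2.19 and 2.77 RPKM in spleen.

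Genes known from liver were measured in the lung library and hardly in the spleen library. ALB, the main protein of blood plasma and a product of hepatocytes, had 343 RPKM in lung (26074 reads), no read in spleen and 5495 RPKM in liver. After this was seen, 60 genes were chosen that had at least 50 RPKM in liver and at least 10 times the level of each of the 6 organs other than spleen and lung. The median level of these genes in lung was 4.64% of that in liver, with quartiles of 3.50% and 5.61%, and 59 of the 60 had at least 1 RPKM in lung. In spleen the median was 0%, with 39 of the 60 listed at 0 and 5 at 1 RPKM or more. For genes chosen in the same way with each further organ in turn taken as the library measured, the median was 0.383% in kidney and at most 0.0678% in heart, testis, ovary, adipose tissue and longissimus dorsi. All 8 compared genes of the hepatocyte list were higher in lung than in spleen (median -6.71, or -7.79 at their limits), with sums of 441 RPKM in lung, 0.79 RPKM in spleen and 7472 RPKM in liver. Of these 8 genes, 6 had no read in spleen and could only be called higher in lung. The part of liver RNA in the values of the lung library was not tested.

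A total of 194 of the 3459 genes higher in lung had a level in liver at least 5 times that in lung. Without all genes of this kind, 3265 genes were higher in lung and 702 in spleen. ALB, HPX and APOE were among the genes left out. No gene of the lists for alveolar type 1 and type 2 cells, club cells, ciliated cells, endothelium, matrix or lung transcription factors was left out, so their counts were as above. Genes selective for other organs had lower levels in lung, with medians of 1.98% of the level in ovary (43 genes), 1.38% of that in adipose tissue (6 genes) and at most 0.252% of that in heart, kidney, testis and longissimus dorsi. The corresponding medians in spleen were 0.944% for ovary and at most 0.227% for the remaining organs.

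**Figure D3:**
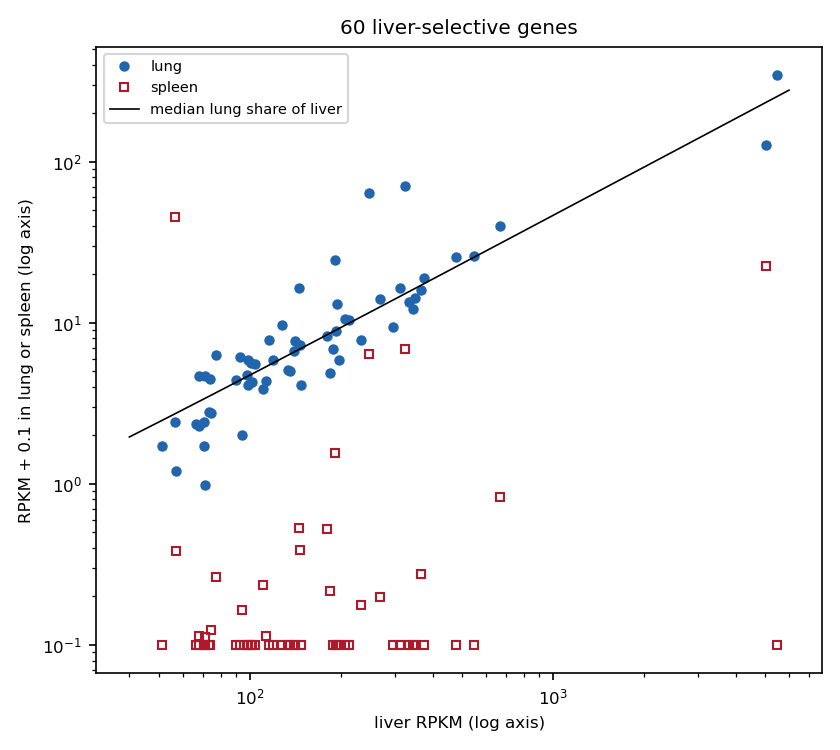
The 60 liver-selective genes are placed by their RPKM in liver (horizontal, log axis) and their RPKM plus 0.1 in lung (filled circles) or spleen (open squares) on the vertical log axis, 1 library per organ. The line is the median level in lung, 4.64% of that in liver. Most circles lie along this line over the whole range of liver levels, whereas 39 of the 60 squares sit at the bottom, at 0 RPKM.

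Where the higher organ stood among all 9 organs differed between the directions. Of the 723 genes higher in spleen than in lung, 305 (42.2%) were at least 2-fold above all 8 other organs in spleen, while ovary had the highest value for 135 and testis for 80. Of the 3459 genes higher in lung, 342 (9.89%) were at least 2-fold above all 8 other organs in lung, and ovary had the highest value for 1071 and testis for 871. Ovary and testis had the largest parts of counted reads among the 9 organs (38.0% and 32.1%). Their RPKM values also had the largest sums, 214285 and 190421, so how often they were highest depends on the scale. Scaled to the same median ratio, 576 of the 1628 genes higher in spleen stood alone in this way, and 241 of the 1900 higher in lung. Genes without a symbol were among the most different ones too. ENSSSCG00000010336 had 669 RPKM in lung (46855 reads), no read in spleen and at most 0.856 RPKM elsewhere. ENSSSCG00000022701 had 30.4 RPKM in spleen, no read in lung and at most 0.0446 RPKM elsewhere.

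Spleen and lung also shared genes against the 7 other organs sequenced at this age. A gene was taken as shared when the lower of both organs was at least 2-fold above the highest of the 7 other organs. This held for 305 of the 10671 genes compared (2.86%), of which 106 were also higher in spleen than in lung and 11 higher in lung than in spleen, and 188 lay within 2-fold. These 106 and 11 genes were also counted above as at least 2-fold above all other organs in spleen or in lung. Of the genes counted in that way as deposited, 199 in spleen and 331 in lung were not shared. The count of shared genes was made for all 36 pairs of the 9 organs. Testis and ovary shared the most (1659 genes, 12.5%), spleen and lung came next, and then lung and testis (254), liver and kidney (169) and heart and longissimus dorsi (161). Spleen and heart shared 4. The order of the pairs depended on the scale. After scaling to the same median ratio, spleen and lung shared 279 genes (2.68%) and kept the second place. Heart and longissimus dorsi then came first (328 genes, 3.46%), and testis and ovary came 5th (204 genes, 1.83%). Spearman's rho was taken across the 15252 genes with at least 1 RPKM in any of the 9 organs, which are no independent replicates. It was 0.77 between spleen and lung, as the third of the 36 pairs after heart with longissimus dorsi (0.81) and ovary with adipose tissue (0.79).

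The 10 shared genes with the widest gap to the other organs belonged mostly to blood cells. LCP1, the actin bundling protein of leukocytes, had 75.4 RPKM in spleen and 53.0 RPKM in lung, against 6.91 RPKM in ovary, the next organ. FERMT3, which activates integrins in leukocytes and platelets, had 20.3 RPKM in spleen and 8.17 RPKM in lung, against 0.694 RPKM in kidney. LCP2, an adaptor of T cell receptor signalling, had 24.5 RPKM in spleen and 11.7 RPKM in lung, against 1.41 RPKM in kidney. Both values were thus several times those of any other organ for each of these genes. CSF2RB, the common beta chain of cytokine receptors, had 6.24 and 4.46 RPKM in spleen and lung, and IL2RG, the common gamma chain, had 3.51 and 2.04 RPKM. CFP, which stabilises the alternative pathway of complement, had 9.08 and 5.58 RPKM, and PTGS1, a cyclooxygenase, had 7.09 and 4.05 RPKM. CD244, a receptor of natural killer cells, showed the widest difference between the organs of the pair with 9.84 RPKM in spleen and 2.75 RPKM in lung. LPCAT1, an enzyme of phosphatidylcholine remodelling, was the only one of the 10 with the higher deposited value in lung (5.52 against 3.65 RPKM), and its difference turned to 0.03 with the same median ratio.

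**Figure D4:**
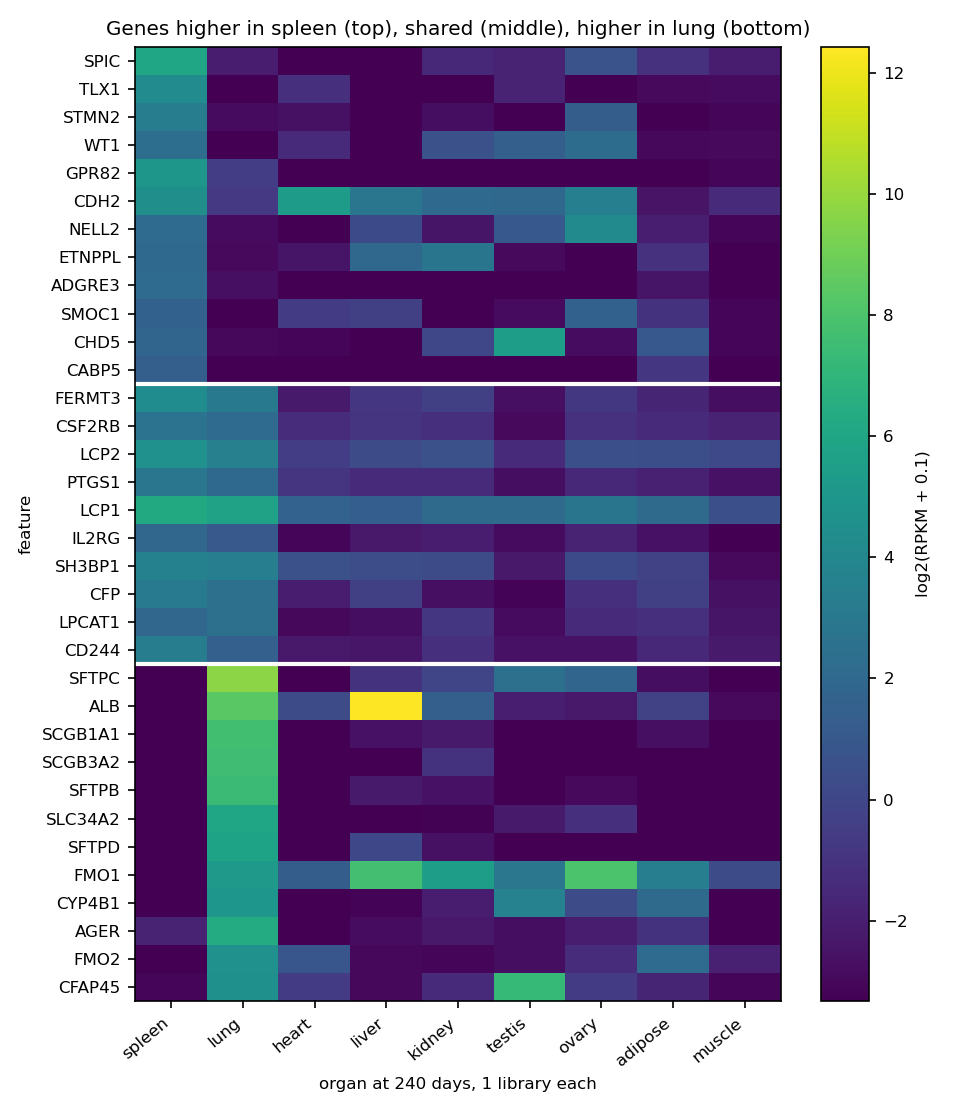
Colour gives the level as log2(RPKM + 0.1) of the 12 genes with the largest excess in spleen (top), 10 shared genes (middle) and the 12 with the largest excess in lung (bottom) in the 9 organs at 240 days, 1 library each. Shared genes are high in both left columns only. Of the spleen genes, CDH2 (heart), CHD5 (testis), NELL2 and SMOC1 (ovary) and ETNPPL (kidney) reach their highest level outside the pair. Of the lung genes, ALB (liver), FMO1 (ovary and liver) and CFAP45 (testis) do.

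Several gene lists of the immune system held shared genes, where 2.86% of all genes compared were shared. Of 14 compared leukocyte genes, 10 were shared, 3 were higher in spleen and none was higher in lung (median 0.72). PTPRC, the phosphatase CD45 of all leukocytes, had 61.7 RPKM in spleen and 32.1 RPKM in lung, against 7.25 RPKM in ovary. VAV1, an exchange factor of blood cells, differed most within the list, with 31.4 RPKM in spleen and 7.49 RPKM in lung. Of 9 T cell genes 7 were shared, of 17 genes of B cell receptor signalling 8, and of 6 B cell genes 2, MS4A1 and CD79B. The count of leukocyte genes higher in spleen was 8 with the same total and 10 with the same median ratio, so it rested on the scale.

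All 7 compared genes of antigen presentation by MHC class II lay within 2-fold, with a median of 0.12, and 4 were shared. Among all genes compared, 60.8% lay within 2-fold and 2.86% were shared. SLA-DQB1, a class II beta chain, had 113 RPKM in spleen and 109 RPKM in lung (ratio 1.03, 95% interval 0.985 to 1.09), and CIITA, the master regulator of class II genes, had 7.63 and 6.07 RPKM. Set against the median of all genes compared, the list lay 0.68 higher in spleen. Toll-like receptors and their adaptors had a median of 0.05, with 2 of 11 higher in spleen and 1 in lung. TLR4, the receptor of bacterial lipopolysaccharide, had 2.65 and 2.35 RPKM in spleen and lung, whereas TLR8, a receptor of RNA, had 8.64 and 1.28 RPKM, and TLR3, a receptor of double-stranded RNA, had 0.306 and 1.36 RPKM. Interferon-stimulated genes had a median of 0.22, with 1 of 9 higher in spleen and 1 in lung, and with 4 and 0 under the same median ratio.

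Myeloid genes and chemokines had genes past 2-fold in both directions. Of 12 myeloid genes, 4 were higher in spleen and 3 higher in lung (median 0.58), where 6.78% of all genes compared were higher in spleen and 32.4% higher in lung. FCER1G, the common chain of Fc receptors, had 44.0 RPKM in spleen and 19.9 RPKM in lung. LYZ, lysozyme, was among those higher in lung, with 0.726 RPKM in spleen and 5.86 RPKM in lung. Of 12 chemokines and receptors, 5 were higher in spleen, all of them receptors, and 4 were higher in lung (median 0.59), the latter again near the share of all genes. The latter included the ligands CCL2, CCL28 and CXCL2. CCL2, which attracts monocytes, had 1.69 RPKM in spleen and 4.74 RPKM in lung. CCL19, a ligand of CCR7, lay within 2-fold with 6.41 and 4.47 RPKM.

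LncRNAs differed more often than Ensembl genes. Of the 724 lncRNAs compared, 138 (19.1%) were higher in spleen, 352 (48.6%) higher in lung and 234 (32.3%) within 2-fold, with a median of -0.92. They rested on few reads, with a median of 21 in spleen and 37 in lung against 145 and 230 for Ensembl genes. The interval of the read ratio did not include 1 for 130 of the 138 and 345 of the 352, again without regard to the 2-fold limit. With the same median ratio the counts turned to 249 higher in spleen and 226 higher in lung. Spearman's rho across lncRNAs was 0.64 between spleen and lung, the highest of the 36 pairs. Of the lncRNAs higher in spleen, 64 (46.4%) were at least 2-fold above all 8 other organs, and of those higher in lung 95 (27.0%).

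The lncRNAs with the largest excess in spleen had lower levels than those with the largest excess in lung. TCONS_00699407 had 4.99 RPKM in spleen (128 reads) and no read in lung (at least 43.3-fold), with at most 0.981 RPKM elsewhere. TCONS_00520467 had 6.65 RPKM in spleen and 0.0461 RPKM in lung (1 read), a ratio of 144 (95% interval 25.5 to 5736). TCONS_00619332, TCONS_00273899 and TCONS_00099633 had 3.79 to 4.43 RPKM in spleen and no read in lung, from 29 to 43 reads. The former pair was nearly absent from the 7 other organs, with at most 0.132 RPKM, but TCONS_00099633 reached 322 RPKM in testis. In lung, TCONS_00742897 had 47.1 RPKM and TCONS_00191107 had 22.1 RPKM, both with no read in spleen and with higher levels in testis (103 and 188 RPKM). TCONS_00550817 had 15.6 RPKM in lung (614 reads), no read in spleen (at least 202-fold) and at most 0.122 RPKM elsewhere. TCONS_00181369 had 27.0 RPKM in lung and 0.0985 RPKM in spleen, but also 12.6 RPKM in liver and 10.3 RPKM in testis. TCONS_00390820 had 10.5 RPKM in lung, no read in spleen and at most 0.284 RPKM elsewhere. The reads of TCONS_00619332 and TCONS_00742897, which were above 0 in 3 libraries only, are lower bounds.

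Both organs shared 36 lncRNAs against the other organs (4.97% of those compared), of which 11 were also higher in spleen than in lung and 4 higher in lung. These 11 and 4 were also counted above as at least 2-fold above all other organs in spleen or in lung. Of the lncRNAs counted in that way, 53 in spleen and 91 in lung were not shared. By the count of shared lncRNAs the pair was the 6th of the 36. TCONS_00092698 was by far the most abundant of the 5 with the widest gap, with 102 RPKM in spleen (826 reads) and 42.1 RPKM in lung (347 reads), against 4.81 RPKM in kidney, the next organ. TCONS_00749742 had 11.4 RPKM in spleen and 11.3 RPKM in lung, and TCONS_00799949 had 10.3 and 11.7 RPKM, with heart next for both at 2.36 and 1.96 RPKM. These 2 lncRNAs were at nearly the same level in both organs. TCONS_00367685 had 3.15 RPKM in spleen and 0.701 RPKM in lung, and TCONS_00035833 had 0.843 and 1.55 RPKM, from 15 and 28 reads.

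**Figure D5:**
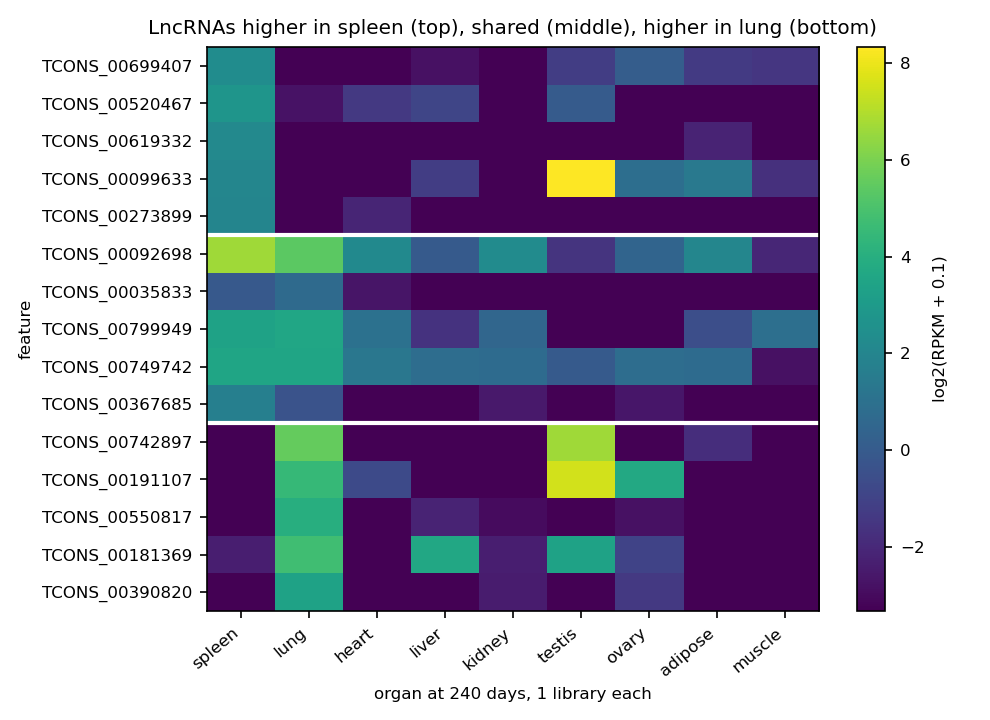
Colour gives the level as log2(RPKM + 0.1) of the 5 lncRNAs with the largest excess in spleen (top), 5 shared lncRNAs (middle) and the 5 with the largest excess in lung (bottom) in the 9 organs at 240 days, 1 library each. TCONS_00092698 is high in both left columns, and TCONS_00099633, TCONS_00742897 and TCONS_00191107 are highest in testis, at 322, 103 and 188 RPKM.

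The remaining lists had at most 12 compared genes each. Of 12 cell cycle genes, none was higher in spleen and 4 were higher in lung, near the 32.4% of all genes compared. Their median of -0.80 differed from that of all genes by -0.24, and PLK1 and MCM5 were the ones with the higher value in spleen. With either scaling, 2 were higher in spleen and 3 in lung. Of 7 compared genes of spleen stroma and sinus, TLX1, WT1 and NKX2-3 were the 3 higher in spleen, and the other 4 lay within 2-fold (median 0.63). Of 3 erythroid genes, HBB and HBM were higher in spleen and none was higher in lung. Of 3 skeletal muscle genes, 2 were higher in lung and 1 in spleen, and 2 of 2 adipocyte genes were higher in lung. The only heart muscle gene compared lay within 2-fold, and the only mesothelial one was WT1. No gene of platelets, pancreas or thyroid and thymus reached 1 RPKM in either organ.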

How the data were processed

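The authors mapped reads with TopHat and assembled transcripts with Cufflinks (TopHat 1.3.2 per the submitters' processing notes), counted reads with htseq-count and deposited 1 value per feature and library as RPKM. The genome build of these libraries was not given in the sources used here. RPKM divides by a total that holds reads outside the listed features, so a library with fewer counted reads has lower values throughout.

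Depths and whole reads were recovered from the ratios of RPKM values (tolerance 0.001), and simulated data were used to check this step. Where at most 3 libraries listed a feature above 0, its reads are a lower bound. Features that reached RPKM 1 in spleen or lung were compared as log2(RPKM + 0.1). Such differences understate the change of low genes. The level of 3 reads was taken as the limit for a library without reads. Python 3.11.15 with scipy 1.17.1 was used. Symbols came from a table that paired 11654 of 21607 Ensembl identifiers with a name, and genes without a symbol entered no list.

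Named were the 12 genes with the largest difference in each direction (at least 20 reads), 10 shared genes, 5 lncRNAs of each kind, the 5 most abundant genes of each organ, members of gene lists and at most 2 identifiers without a symbol in each direction. The members and lists were chosen with earlier results of these data known. Alternatives were other pseudocounts, limits, folds and scalings, and other sets of organs. Levels of lncRNAs refer to assembled transcripts, and no sequence or position was used. A few further members of the gene lists entered the counts and are not reported here one by one.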

Additional observations from a re-analysis of the deposited data

How the results depend on the processing

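With 1 library for each organ, the precision between animals could not be given, and a feature with few reads could not be told from one without reads. No paired analysis was possible because each organ had 1 library and the labels carry no replicate numbers. Against 723 genes higher in spleen, 443 were found with a pseudocount of 1, 1192 without the limit on RPKM, 273 with RPKM of at least 5, 249 at 4-fold, 1206 with the same total, 1628 with the same median ratio and 1390 when scaled by the counted reads. Against 3459 higher in lung, it was 2189, 5456, 1133 and 1610 in the first 4 of these settings, 1900 with the same median ratio and 2089 when scaled by the counted reads. For lncRNAs higher in spleen (138), the 7 settings gave 80, 526, 12, 78, 217, 249 and 234. For those higher in lung (352), it was 1650 without the limit, 43 with RPKM of at least 5 and 226 with the same median ratio. Shared genes (305) were 161 with a pseudocount of 1, 83 at 4-fold, 172 with RPKM of at least 5, 626 with the same total, 513 when scaled by the counted reads, 522 without ovary, 308 to 358 without any other single organ and 713 without testis and ovary. Shared lncRNAs (36) were 6, 6, 9 and 57 in the first 4 of these settings and 59 without testis and ovary. Genes above all 8 other organs in spleen (305) were 632 with the same total, 576 with the same median ratio and 648 when scaled by the counted reads, and lncRNAs (64) were 140, 121 and 144. LncRNAs above all 8 other organs in lung (95) were 60 with the same median ratio. Scaling by the counted reads was chosen after seeing the data. The median of the 3 skeletal muscle genes changed sign from -2.48 to 1.88 with the same median ratio, where fewer genes passed the limit on RPKM. Of the 59 other named genes and lncRNAs, 4 changed sign in a scaling, all within 2-fold as deposited. COX1, TMSB10 and TCONS_00799949 went from -0.32, -0.21 and -0.18 to 0.09, 0.20 and 0.22 with the same total, and LPCAT1 from -0.58 to 0.03 with the same median ratio.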
